A study of Mus musculus with 12 samples.

Results

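Colonocyte preparations can carry the lymphocytes that live between epithelial cells, and a set of T cell and intraepithelial lymphocyte genes was followed here in mouse colonocytes with or without the C15ORF48/miR-147 locus. The set was given as 10 gene symbols: Cd3d, Cd3e, Cd3g, Cd8a, Cd7, Gzma, Gzmb, Itgae, Ccl5r and Art2a. Of these, 9 matched by symbol among the 23790 genes used. Ccl5r matched no gene line, was not analysed here and was not replaced by another gene. Cd3d, Cd3e, Cd3g, Cd8a, Cd7, Gzma, Gzmb and Itgae were listed for what they encode, whereas Art2a was chosen by its measured RPKM, which was higher in knockout than in wild-type libraries under dextran sodium sulfate (DSS). The Art2a values of that comparison are therefore a description, with no test.

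RNA-seq of polyadenylated RNA, made as stranded libraries, was done on purified colonocytes, the absorptive cells of the colon epithelium. The 4 groups of 3 libraries were knockout (genotype C15ORF48/miR-147 KO) and wild-type (WT) colonocytes of untreated mice, and KO and WT colonocytes of mice given DSS (3% for 3 days), a sulfated sugar polymer that damages the lining of the colon. The strain, sex and age of the mice, how the knockout was made, how colonocytes were purified and whether a library holds 1 mouse or a pool stand in none of the sources used here. P-values therefore reflect only the variation among these libraries, which may be technical. The treatment text of the labels names DSS for all 12 libraries, while their treatment field reads none for 6. The titles and the treatment field were followed.

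Intraepithelial lymphocytes are mostly T cells that reside among the epithelial cells of the gut. The T cell receptor reaches the cell surface only together with the CD3 chains, which carry its signal inward, and the coreceptor CD8 is made of CD8 alpha chains alone or of CD8 alpha with CD8 beta. These cells hold on to the epithelium through integrin alpha E beta 7, which binds E-cadherin, and many of them store granzymes in cytotoxic granules. Epithelial cells in turn display butyrophilin-like proteins and other surface molecules that keep such lymphocytes in place.

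The libraries held 20606918 to 26839250 reads in untreated groups and 12621697 to 16707030 reads under DSS. AA467197, the mouse gene of C15ORF48, averaged 4.68 ± 0.868 RPKM (reads per kilobase of gene, scaled to the depth of the library) in KO untreated and 434 ± 7.11 RPKM in WT untreated libraries, and 7.69 ± 1.36 RPKM in KO DSS and 429 ± 76.0 RPKM in WT DSS libraries (SD, n = 3 each). The 9 genes together took 0.00189% to 0.00614% of the reads of a library, and each held 8 to 208 reads in a library, so the counting error of single values is large. Epithelial markers (12 genes) summed to 10218 to 22845 RPKM per library, against 4.11 to 17.2 RPKM for the 3 CD3 chains, and all 12 epithelial markers averaged above 1 RPKM in every group, as the labelled cell type has it. KO DSS replicate 3 had the highest value of its group for Cd3d, Cd3e, Cd3g, Cd7, Cd8a and Itgae, and KO untreated replicate 5 had the highest of its group for all of them and for both granzymes. WT untreated replicate 3 stood apart in the sum of the fibroblast and endothelial list, with 30.6 RPKM against 2.84 to 8.04 RPKM in the other 11 libraries. Of that sum 23.6 RPKM was Dcn, and Col1a1, Col1a2 and Col3a1 were also highest there. The endothelial genes Pecam1 (1.40 RPKM) and Vwf (0.341 RPKM) lay between the values of WT untreated replicates 1 and 2. In RNA from bulk samples, more T cells and more T cell RNA per cell cannot be told apart.

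The CD3 chains, the signalling part of the T cell receptor complex, are encoded side by side on chromosome 9. Per GENCODE vM21 on GRCm38, Cd3g (ENSMUSG00000002033.14) spans chr9:44969572-44980431 on the minus strand and Cd3d (ENSMUSG00000032094.8) spans chr9:44981786-44987339 on the plus strand. Their starts lie 1355 bases apart and point away from each other. Cd3e (ENSMUSG00000032093.7) spans chr9:44998740-45009627 on the minus strand, and its end faces the end of Cd3d across 11401 bases. Cd3e overlaps the gene models Gm48719 and Gm48720. The promoter windows of the 3 chains and of the granzymes (RefSeq, GRCm38.p6, 250 bases before to 50 after the start, 300 bases each) are shown because the results turn on the neighbouring CD3 genes and on the granzymes. RefSeq windows were matched for 6 of the 9 genes, namely Cd3g, Cd3d, Cd3e, Cd8a, Gzma and Gzmb. Capitals mark matches, on either strand, to 4 short motifs: an E-box of E proteins, a RUNX core, a GATA motif and an ETS motif, whose letters follow the sequences.
Cd3g promoter (chr9:44980382-44980681, minus strand): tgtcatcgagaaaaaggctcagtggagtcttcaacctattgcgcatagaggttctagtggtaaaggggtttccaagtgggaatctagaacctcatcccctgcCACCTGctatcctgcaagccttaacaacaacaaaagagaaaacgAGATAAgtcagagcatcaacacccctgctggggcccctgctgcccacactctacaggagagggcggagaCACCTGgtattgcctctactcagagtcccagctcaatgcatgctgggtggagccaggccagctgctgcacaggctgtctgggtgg
Cd3d promoter (chr9:44981536-44981835, plus strand): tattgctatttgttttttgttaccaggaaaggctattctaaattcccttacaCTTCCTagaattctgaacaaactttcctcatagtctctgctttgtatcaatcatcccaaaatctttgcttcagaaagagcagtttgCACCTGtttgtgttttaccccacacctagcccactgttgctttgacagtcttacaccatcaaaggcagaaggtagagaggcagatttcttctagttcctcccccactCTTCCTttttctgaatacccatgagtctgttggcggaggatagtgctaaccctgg
Cd3e promoter (chr9:45009562-45009861, minus strand): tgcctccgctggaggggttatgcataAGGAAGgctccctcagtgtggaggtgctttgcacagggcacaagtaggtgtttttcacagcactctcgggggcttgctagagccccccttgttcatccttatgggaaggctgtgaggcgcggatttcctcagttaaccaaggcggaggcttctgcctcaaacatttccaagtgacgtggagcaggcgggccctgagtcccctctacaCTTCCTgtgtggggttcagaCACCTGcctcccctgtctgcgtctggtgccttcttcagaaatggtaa
Gzma promoter (chr13:113100932-113101231, minus strand): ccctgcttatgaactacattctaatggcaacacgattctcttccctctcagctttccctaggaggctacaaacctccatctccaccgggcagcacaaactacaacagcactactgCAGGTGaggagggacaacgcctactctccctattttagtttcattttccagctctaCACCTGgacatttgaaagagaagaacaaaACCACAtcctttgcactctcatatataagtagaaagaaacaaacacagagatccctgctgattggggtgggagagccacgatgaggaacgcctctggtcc
Gzmb promoter (chr14:56262285-56262584, minus strand): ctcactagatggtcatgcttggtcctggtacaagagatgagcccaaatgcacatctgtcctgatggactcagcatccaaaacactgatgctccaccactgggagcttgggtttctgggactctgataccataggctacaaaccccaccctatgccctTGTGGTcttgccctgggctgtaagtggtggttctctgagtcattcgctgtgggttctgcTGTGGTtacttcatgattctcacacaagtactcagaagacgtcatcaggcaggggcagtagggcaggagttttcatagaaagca

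The windows of Cd3g, Cd3d, Cd3e and Gzma hold the E-box CAGGTG on one strand or the other, as do 20.2% of the 32851 promoter windows of the mouse table. The RUNX core TGTGGT is in the windows of Gzma and Gzmb and in 16.8% of all windows. The GATA motif AGATAA is in the window of Cd3g and in 11.2% of all windows, and the ETS motif AGGAAG is in those of Cd3d and Cd3e and in 35.4% of all windows. None of the 4 motifs is in the window of Cd8a, and no 2 marked matches overlap. A match describes the letters of the window and says nothing of a factor being bound.

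Under DSS the CD3 chains were higher in KO than in WT libraries without overlap, but none passed the test over all genes. Cd3d, the delta chain, was at 1.25, 1.55 and 2.65 RPKM in KO DSS libraries and at 0.618, 0.932 and 1.03 RPKM in WT DSS libraries. Cd3e, the epsilon chain, was at 3.58, 2.62 and 3.86 RPKM in KO DSS libraries and at 1.39, 1.90 and 2.26 RPKM in WT DSS libraries. Cd3g, the gamma chain, was at 4.94, 4.34 and 10.7 RPKM in KO DSS libraries and at 2.1, 4.1 and 3.16 RPKM in WT DSS libraries. The lowest KO DSS library was above the highest WT DSS library for each chain, narrowly so for Cd3g, whose KO DSS replicate 3 was far above the others. Of the WT DSS libraries only replicate 3 reached 1 RPKM for Cd3d. Cd3d thus passed the filter of 1 RPKM in 3 libraries through the KO DSS libraries, where it was high, and its p is a description. On the log2(RPKM + 1) scale, which understates changes of genes this low, the KO over WT difference was 0.57 (SE 0.20) for Cd3d, with an adjusted p of 0.189 in limma (moderated linear models with Benjamini-Hochberg adjustment over all genes tested). It was 0.61 (SE 0.17, adjusted p = 0.131) for Cd3e and 0.83 (SE 0.30, adjusted p = 0.20) for Cd3g in limma. Without KO DSS replicate 3 the differences were 0.37, 0.53 and 0.48 in that order, and the limma adjusted p were 0.476, 0.414 and 0.476.

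In untreated mice the CD3 chains of KO and WT libraries overlapped. Cd3d was at 1.26, 1.05 and 1.57 RPKM in KO untreated libraries and at 0.567, 0.951 and 1.06 RPKM in WT untreated libraries. Only replicate 3 of the WT untreated libraries reached 1 RPKM for Cd3d, which passed the filter through the KO untreated libraries, so its p here is a description too. Cd3e was at 2.21, 1.66 and 2.96 RPKM in KO untreated libraries and at 2.16, 2.13 and 3.39 RPKM in WT untreated libraries. Cd3g was at 2.91, 2.47 and 3.83 RPKM in KO untreated libraries and at 2.86, 2.90 and 3.59 RPKM in WT untreated libraries. The difference was 0.30 (SE 0.14, limma adjusted p = 0.549) for Cd3d, -0.12 (SE 0.18, limma adjusted p = 0.839) for Cd3e and -0.03 (SE 0.14, limma adjusted p = 0.965) for Cd3g. The last 2 ran from -0.27 to 0.041 and from -0.16 to 0.083 with 1 library left out, so they have no settled direction. The summed level of the 3 chains averaged 6.64 ± 1.61 RPKM in KO untreated and 6.54 ± 1.32 RPKM in WT untreated libraries, and 11.8 ± 4.72 RPKM in KO DSS and 5.83 ± 1.51 RPKM in WT DSS libraries (SD, n = 3 each). The KO mean was 1.02 times the WT mean in untreated mice and 2.03 times the WT mean under DSS. The interaction, the KO over WT difference under DSS minus that in untreated mice, was 0.27 (SE 0.25) for Cd3d, 0.73 (SE 0.26) for Cd3e and 0.86 (SE 0.37) for Cd3g on the log2 scale. The limma adjusted p of these interactions were 0.582, 0.17 and 0.233. The order of levels was the same in 12 of 12 libraries, with Cd3g above Cd3e above Cd3d per kilobase. Cd247, the zeta chain that completes the complex, was far lower, with means of 0.141 RPKM in KO untreated, 0.131 RPKM in WT untreated, 0.253 RPKM in KO DSS and 0.114 RPKM in WT DSS libraries. The T cell receptor constant segments that were listed matched no gene line by symbol and were not analysed here.

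**Figure D1:**
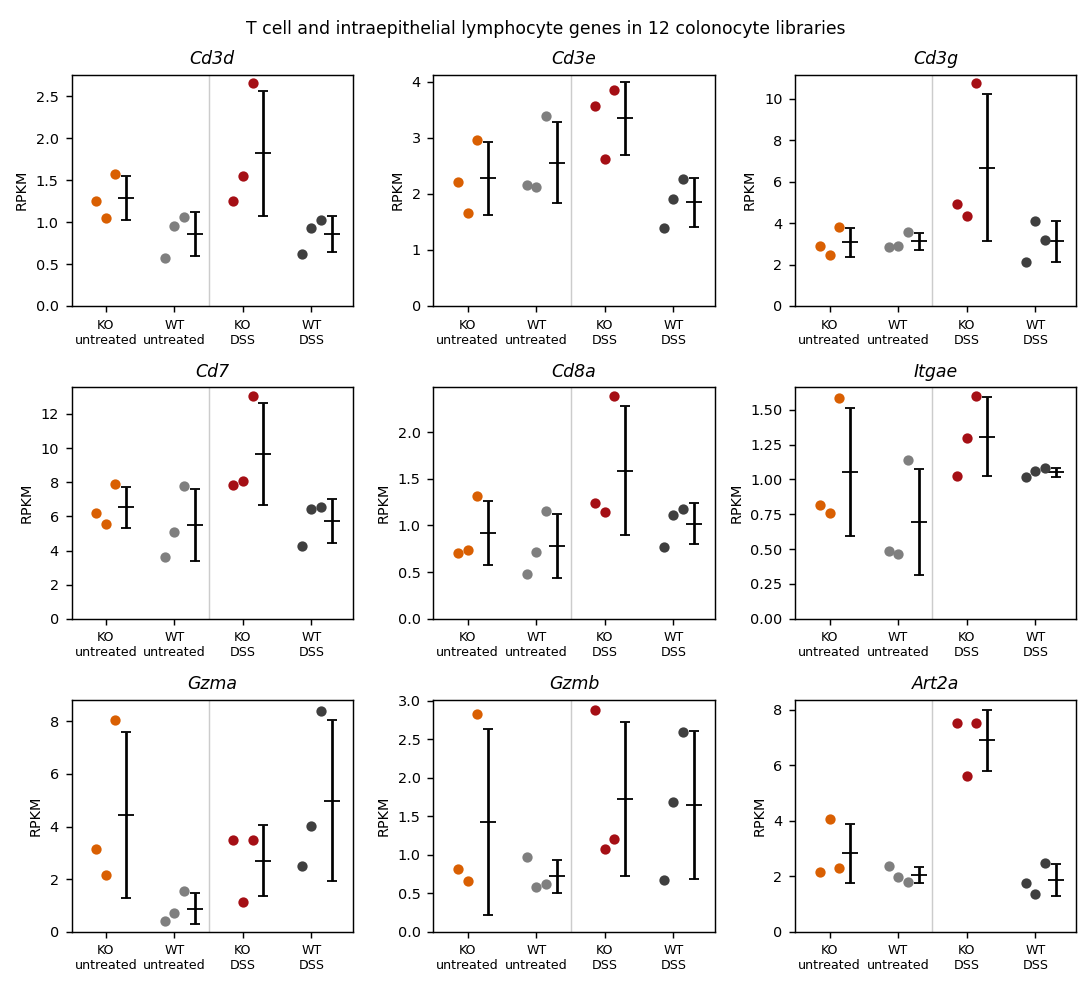
RPKM of the 9 genes in each library (points), with the mean ± SD of the 3 libraries of a group (bars), for KO untreated, WT untreated, KO DSS and WT DSS from left to right; the vertical line parts the 2 separately normalised tables. Cd3d, Cd3e, Cd3g, Cd7 and Art2a of the KO DSS libraries all lie above the WT DSS libraries, and Gzma of the KO untreated libraries lies above the WT untreated libraries.

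Among coreceptors and other surface receptors, Cd7 was the more abundant and Cd8a was low. Cd7 (ENSMUSG00000025163.6, chr11:121036747-121039418, minus strand), an immunoglobulin family receptor of T and NK cells, was the highest of the 9 genes in 10 of the 12 libraries. It was at 7.82, 8.06 and 13.1 RPKM in KO DSS libraries and at 4.26, 6.42 and 6.57 RPKM in WT DSS libraries. The groups did not overlap, and the difference was 0.64 (SE 0.22, limma adjusted p = 0.187) on the log2 scale. In the limma fit with the replicate numbers of the titles as a block its adjusted p was 0.0479, although the libraries of equal number did not vary together throughout. Without KO DSS replicate 3, the highest of the group, the difference was 0.43. In untreated mice Cd7 was at 6.19, 5.56 and 7.88 RPKM in KO libraries and at 3.63, 5.07 and 7.78 RPKM in WT libraries, which overlapped (0.25, SE 0.22, limma adjusted p = 0.723). Its interaction was 0.39 (SE 0.34, limma adjusted p = 0.556). The gene overlaps the gene model Gm11775.

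Cd8a (ENSMUSG00000053977.13, chr6:71373427-71379173, plus strand), the alpha chain of the CD8 coreceptor, was at 1.24, 1.14 and 2.38 RPKM in KO DSS libraries and at 0.768, 1.11 and 1.17 RPKM in WT DSS libraries. KO DSS replicate 2 lay below WT DSS replicate 3, so the groups overlapped, and the difference was 0.33 (SE 0.19, limma adjusted p = 0.358). In untreated mice it was at 0.703, 0.737 and 1.32 RPKM in KO libraries and at 0.482, 0.711 and 1.16 RPKM in WT libraries, too low to pass the filter of 1 RPKM in 3 libraries. Its interaction was 0.22 (SE 0.28, limma adjusted p = 0.688). Its partner Cd8b1 held 19 reads in the 12 libraries together, and Cd4, the other T cell coreceptor, held 24. Cd2, among the 3 most abundant genes of the coreceptor list, held 127 reads in all, and Cd27 of the same list held 94. Cd5, Cd6 and Cd28, receptors of most circulating T cells, held 15, 29 and 36 reads in all. Cd27, Cd5, Cd6 and Cd28 are named outside the naming rule given below.

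Itgae encodes the alpha E chain (CD103) of the integrin that binds E-cadherin. It was at 1.03, 1.30 and 1.60 RPKM in KO DSS libraries and at 1.02, 1.06 and 1.08 RPKM in WT DSS libraries, which overlapped (0.16, SE 0.14, limma adjusted p = 0.522). In untreated mice it was at 0.816, 0.761 and 1.59 RPKM in KO libraries and at 0.484, 0.465 and 1.14 RPKM in WT libraries and did not pass the filter. Its interaction was -0.12 (SE 0.25, limma adjusted p = 0.829). Haspin, a kinase gene on the minus strand (chr11:73135485-73138294), lies inside Itgae on the plus strand (chr11:73090583-73147446), and its reads exceeded those of Itgae in 12 of 12 libraries. Whether counting used the strand is not stated in those sources, so reads of the 2 genes may not be told apart. Itgb7, the beta 7 chain, averaged 0.65 RPKM in KO untreated, 0.614 RPKM in WT untreated, 0.964 RPKM in KO DSS and 0.549 RPKM in WT DSS libraries. Cdh1, which encodes the E-cadherin ligand on colonocytes, averaged 388 RPKM in KO untreated, 370 RPKM in WT untreated, 353 RPKM in KO DSS and 426 RPKM in WT DSS libraries.

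Granzymes are serine proteases of cytotoxic granules. Gzma (ENSMUSG00000023132.8, chr13:113093825-113100981, minus strand) was at 3.15, 2.16 and 8.06 RPKM in KO untreated libraries (68, 52 and 143 reads) and at 0.403, 0.693 and 1.55 RPKM in WT untreated libraries (8, 14 and 29 reads). The KO untreated libraries were all above the WT untreated libraries, and the mean was 5.05 times as high. Of the WT untreated libraries only replicate 3 reached 1 RPKM, so Gzma passed the filter through the KO untreated libraries, where it was high. Its p in that comparison is therefore a description. On the log2 scale the difference was 1.43 (SE 0.38), with a limma p of 0.00518 that did not pass after adjustment over all genes (adjusted p = 0.497). Without KO untreated replicate 5, the highest library, it was 0.99 (limma adjusted p = 0.232). Under DSS Gzma was at 3.50, 1.14 and 3.49 RPKM in KO libraries and at 2.51, 4.02 and 8.4 RPKM in WT libraries, so that the groups overlapped and the KO mean was the lower one (-0.65, SE 0.38, limma adjusted p = 0.361). Without WT DSS replicate 3 the DSS difference was the smallest of those that leave out a library, at -0.26. The interaction was -2.08 (SE 0.61), with a limma p of 0.00506 and an adjusted p of 0.103. It was -2.26 with an adjusted p of 0.0446 in the limma fit that removes a trend with gene length.

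Gzmb (ENSMUSG00000015437.5, chr14:56258838-56262260, minus strand) was at 2.87, 1.08 and 1.21 RPKM in KO DSS libraries and at 0.669, 1.68 and 2.59 RPKM in WT DSS libraries, which overlapped widely (0.05, SE 0.31, limma adjusted p = 0.939). In untreated mice it was at 0.809, 0.654 and 2.82 RPKM in KO libraries and at 0.968, 0.577 and 0.622 RPKM in WT libraries and did not pass the filter. Its interaction was -0.35 (SE 0.48, limma adjusted p = 0.723). Perforin (Prf1), the pore former that lets granzymes into a target cell, held 32 reads in the 12 libraries together, and Gzmk held 4. Gzmc, chosen after its values were seen, was at 0.507, 0.669 and 1.19 RPKM in KO DSS libraries (6, 10 and 17 reads) and at 0.0676, 0.189 and 0.133 RPKM in WT DSS libraries, and was too low to be tested. Gzmb and Gzmc belong to a family of similar genes, so reads that fit several of them may have been split.

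Art2a encodes an ADP-ribosyltransferase of the T cell surface. Under DSS, in the values for which it was chosen, it was at 7.54, 5.63 and 7.54 RPKM in KO libraries (120, 113 and 145 reads) and at 1.76, 1.36 and 2.47 RPKM in WT libraries (35, 29 and 50 reads), a KO mean 3.70 times the WT mean. In untreated mice it was at 2.14, 4.05 and 2.29 RPKM in KO libraries and at 2.37, 1.98 and 1.80 RPKM in WT libraries, which overlapped (0.30, SE 0.18, limma adjusted p = 0.628). GENCODE vM21 names the gene Art2a-ps (ENSMUSG00000092517.1), a polymorphic pseudogene at chr7:101552453-101560865 on the minus strand, which some mouse strains carry in a disrupted form. Its close paralog Art2b lies 16105 bases away and held 1 to 6 reads per library. Reads that fit both copies could have been given to either, so the split between them is uncertain.

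**Figure D2:**
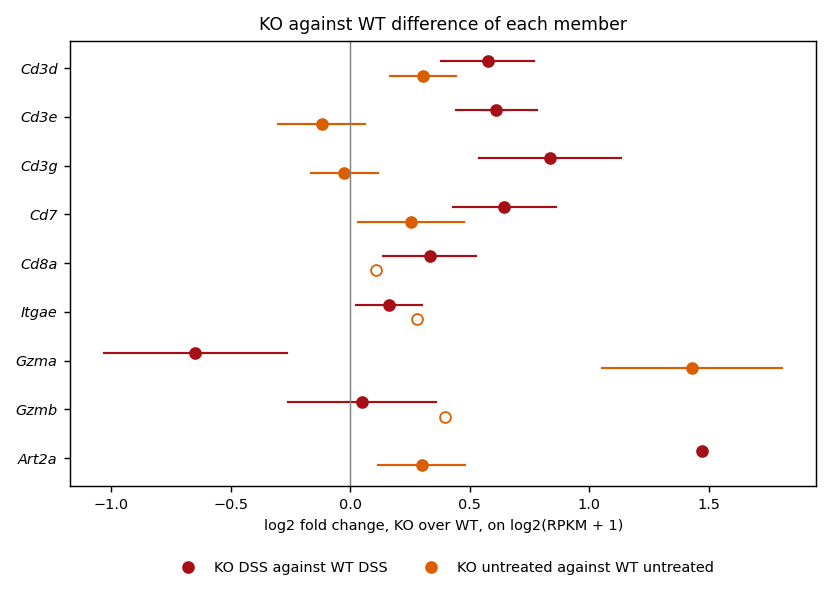
KO over WT difference of each of the 9 genes on log2(RPKM + 1), under DSS and in untreated mice, with bars of ± 1 standard error from limma (3 libraries a group). Open circles are genes below the filter and the Art2a value under DSS is a description, both without bars; Gzma lies at 1.43 in untreated mice and at -0.65 under DSS, and the CD3 chains at 0.57 to 0.83 under DSS.

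All 9 genes passed the filter under DSS and in the interaction, and 6 of them did in untreated mice. Of the 8 other than Art2a, 0 were called under DSS at an adjusted p under 0.05 in limma, against 84 of 10990 genes tested (0.764%). At an unadjusted p under 0.05, 4 of the 8 passed (Cd3d, Cd3e, Cd3g and Cd7), as did 18.7% of all genes, and the count from limma voom on recovered reads was also 0 called and 4 unadjusted. The unadjusted count was 2 with the trend in gene length removed, 1 without KO DSS replicate 3 and 2 without WT DSS replicate 1. The same 4 genes did not overlap between KO DSS and WT DSS with KO higher, as was so for 11.1% of all genes tested. Because the list was proposed with this contrast in view, nothing is read from these shares. In untreated mice 0 of 6 were called in limma, against 2 of 11072 genes (0.0181%). There, 1 passed at an unadjusted p under 0.05 (Gzma, 9.09% of all genes), by limma and by voom, and the same 1 of 9 genes did not overlap with KO higher (8.32% of all genes tested). Gzma and Cd3d passed the filter there through the KO libraries, where they were higher, as did Cd3d under DSS, so nothing is read from their p. In the interaction 0 of 8 were called in limma, against 158 of 11306 genes (1.4%), and 3 passed at an unadjusted p under 0.05 (Cd3e, Cd3g and Gzma, 19% of all genes), or 2 by voom.

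Set over the summed CD3 chains of the same library, the granzymes, Cd8a and Art2a gave the following values. These ratios were chosen after the values were seen and carry no test. Gzma per CD3 was 0.493, 0.418 and 0.963 in KO untreated libraries and 0.0721, 0.116 and 0.193 in WT untreated libraries. It was 0.358, 0.133 and 0.202 in KO DSS libraries and 0.611, 0.58 and 1.30 in WT DSS libraries. The groups did not overlap in either table, with KO above WT in untreated mice and below WT under DSS. Cd8a per CD3 was 0.127, 0.134 and 0.138 in KO DSS libraries and 0.187, 0.16 and 0.182 in WT DSS libraries, lower in KO without overlap, and the untreated groups overlapped. Art2a per CD3 was 0.772, 0.661 and 0.437 in KO DSS libraries and 0.429, 0.196 and 0.383 in WT DSS libraries, so its KO DSS values stayed above those of WT DSS by a narrower margin. Gzmb per CD3 overlapped in both tables.

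**Figure D3:**
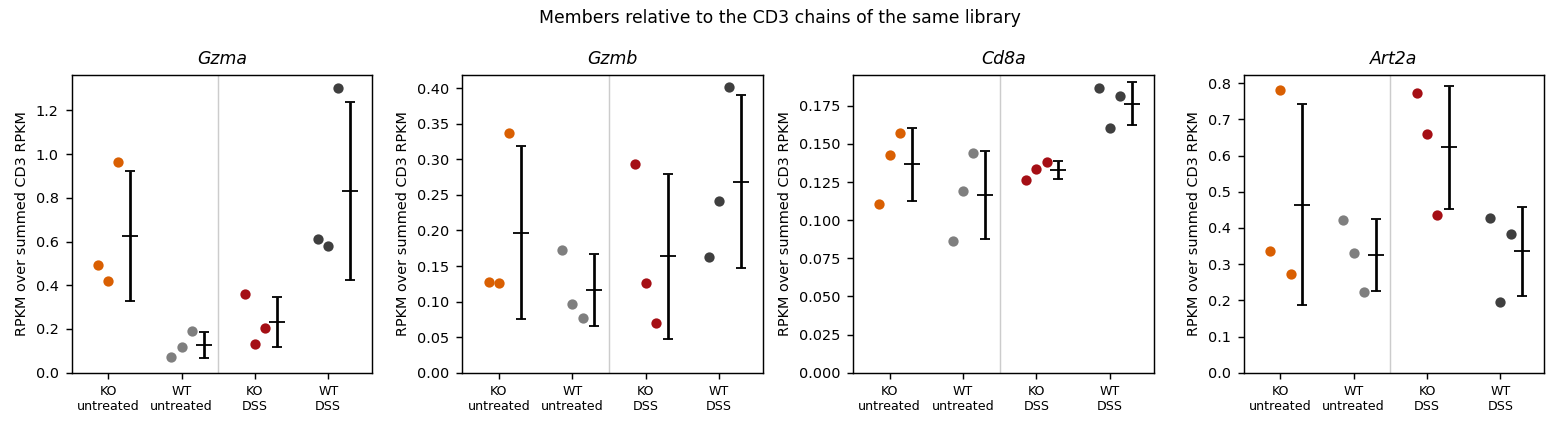
RPKM of Gzma, Gzmb, Cd8a and Art2a over the summed RPKM of Cd3d, Cd3e and Cd3g in the same library (points), with the mean ± SD of the 3 libraries of a group (bars). Gzma per CD3 runs from 0.418 to 0.963 in KO untreated and from 0.0721 to 0.193 in WT untreated libraries, and from 0.133 to 0.358 in KO DSS and from 0.58 to 1.30 in WT DSS libraries.

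Within groups, the genes varied together to different degrees. After each group's mean was subtracted, the Pearson r over the 12 libraries with the mean of the CD3 chains was 0.95 for Cd8a, 0.92 for Cd7, 0.76 for Gzma, 0.71 for Itgae, 0.35 for Gzmb and -0.13 for Art2a. Without the 2 libraries farthest from the median, KO DSS replicate 3 and KO untreated replicate 5, these values were 0.90, 0.91, 0.75, 0.60, 0.42 and -0.20 in that order. Of 11306 genes ranked by this measure, Cd8a was at rank 2 and Cd7 at rank 5. The 6 genes outside the list with the highest r were Ctsw (0.94), which encodes a cathepsin of cytotoxic lymphocytes, Rgs1 (0.93), a regulator of G protein signalling, Homer2 (0.91), a scaffold protein, Xcl1 (0.90), a chemokine of T and NK cells, Ltb (0.90), which encodes lymphotoxin beta, and Grin3a (0.89), a glutamate receptor subunit. These correlations describe libraries that share depth and purification.

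Other genes of T cells were read from 6 lists covering receptor chains, coreceptors, receptor signalling, transcription factors, cytotoxic effectors, and adhesion and homing of intraepithelial lymphocytes. Besides the 9 genes, the lists held 71 genes in the tables, of which 18 passed the filter under DSS. Of these 18, 12 were higher and 6 lower in KO DSS than in WT DSS (49.2% of all genes tested were higher), with a median of 0.33 on the log2 scale against -0.01 over all genes tested. Limma called 0 of the 18, with 6 at an unadjusted p under 0.05 (18.7% of all genes), and voom also called 0. KO DSS and WT DSS libraries did not overlap for 5 of the 18 with KO higher (11.1% of all genes tested). They did not overlap for 1 with KO lower, for which no share of all genes was taken. Of the WT DSS libraries only replicate 2 reached 1 RPKM for Cd96 (1.14 RPKM) and for Cd160 (1.23 RPKM). Both are among the 18 and passed the filter through the KO DSS libraries, where they were high. Cd96 is also among the 6 and the 5, so nothing is read from these counts. Klrd1 (CD94), a receptor chain of NK cells and some T cells, was at 3.83, 4.84 and 5.13 RPKM in KO DSS libraries and at 1.39, 2.86 and 1.94 RPKM in WT DSS libraries, without overlap (0.89, SE 0.19, limma adjusted p = 0.0782). Xcl1 was at 6.71, 6.52 and 9.34 RPKM in KO DSS libraries and at 2.93, 4.10 and 4.68 RPKM in WT DSS libraries, also without overlap (0.80, SE 0.18, limma adjusted p = 0.0929). Lck, the kinase that starts signalling from the receptor, averaged 3.83 ± 0.858 RPKM in KO DSS and 2.73 ± 0.333 RPKM in WT DSS libraries (SD, n = 3 each), which overlapped, and was the 1 of 14 signalling genes that passed the filter. Itga1, an integrin chain that binds collagen, ran the other way without overlap, at 1.39, 1.45 and 1.79 RPKM in KO DSS libraries and at 2.46, 3.26 and 1.87 RPKM in WT DSS libraries (-0.46, SE 0.17, limma adjusted p = 0.209). Of the 5 transcription factors tested, 1 was higher and 4 were lower in KO DSS, and the most abundant of them, Zbtb7b, averaged 45.1 ± 5.47 RPKM in KO DSS and 46.1 ± 0.711 RPKM in WT DSS libraries (SD, n = 3 each). Zbtb7b was at 40.6 RPKM or more in every library, where the summed CD3 chains reached at most 17.2 RPKM. Tbx21, Eomes, Runx3 and Lef1 were too low to be tested. Which cells gave the reads of the tested factors was not tested, so their directions may not describe T cells. In untreated mice 16 genes outside the 9 passed the filter, 8 higher and 8 lower in KO (53.3% of all genes tested were higher), with a median of -0.01 against 0.01 over all genes. Limma called 0 of the 16, with 0 at an unadjusted p under 0.05, and voom also called 0. Ccl5, a chemokine stored by cytotoxic T cells, averaged 6.44 RPKM in KO untreated, 4.22 RPKM in WT untreated, 5.59 RPKM in KO DSS and 6.11 RPKM in WT DSS libraries.

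The epithelial side was read from 16 genes of molecules that intraepithelial lymphocytes meet on colonocytes. Under DSS 14 of them passed the filter, 11 higher and 3 lower in KO than in WT (49.2% of all genes tested were higher). The median was 0.37 on the log2 scale, or 0.22 with a trend in gene length removed. Limma called 2 of the 14, both higher in KO DSS, as were 0.446% of all genes tested. Btnl2, a butyrophilin-like protein that acts on T cells, was at 3.3, 5.37 and 5.3 RPKM in KO DSS libraries and at 1.6, 1.5 and 1.67 RPKM in WT DSS libraries, a difference of 1.10 (SE 0.17, limma adjusted p = 0.034). H2-T3, the thymus leukaemia antigen that binds CD8 alpha homodimers, was at 34.6, 40.5 and 40.4 RPKM in KO DSS libraries and at 17, 16.1 and 23.9 RPKM in WT DSS libraries, a difference of 0.998 (SE 0.162, limma adjusted p = 0.037). Without the filter on low values the limma adjusted p was 0.139 for Btnl2 and 0.138 for H2-T3. Leaving out KO DSS replicate 2, KO DSS replicate 3, WT DSS replicate 1 or WT DSS replicate 2 gave limma adjusted p of 0.06, 0.173, 0.189 and 0.194 for Btnl2 and of 0.0652, 0.173, 0.206 and 0.209 for H2-T3, and leaving out WT DSS replicate 3 gave 0.0601 for Btnl2. Btnl1, which with Btnl6 sustains gamma delta T cells of the mouse gut and was added after its values were seen, was at 57.2, 75.3 and 73.8 RPKM in KO DSS libraries and at 40.9, 34.7 and 48.1 RPKM in WT DSS libraries (0.73, SE 0.16, limma adjusted p = 0.0884). Btnl6 averaged 69.5 ± 13.2 RPKM in KO DSS and 46.5 ± 8.89 RPKM in WT DSS libraries (SD, n = 3 each), with a limma adjusted p of 0.18. Il18, a cytokine that the epithelium makes, averaged 179 ± 30.9 RPKM in KO DSS and 138 ± 37.0 RPKM in WT DSS libraries (SD, n = 3 each), which overlapped. The Btnl genes and H2-T3 have close relatives in the mouse genome, so reads that fit several copies make their levels uncertain.

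In untreated mice 3 of the 14 epithelial genes were higher and 11 lower in KO (53.3% of all genes tested were higher), with a median of -0.10. Limma and voom called 0 of them, with 1 at an unadjusted p under 0.05 in each (9.09% of all genes in limma). Btnl2 differed there by -0.01 (SE 0.19) and H2-T3 by -0.07 (SE 0.22). In the interaction 13 were higher and 1 lower (49.6% of all genes tested were higher), with 0 called in limma or voom. In each, 5 of the 14 were at an unadjusted p under 0.05 (19% of all genes in limma), and the limma adjusted p was 0.0624 for Btnl2 (1.12, SE 0.27) and 0.0848 for H2-T3 (1.07, SE 0.29).

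**Figure D4:**
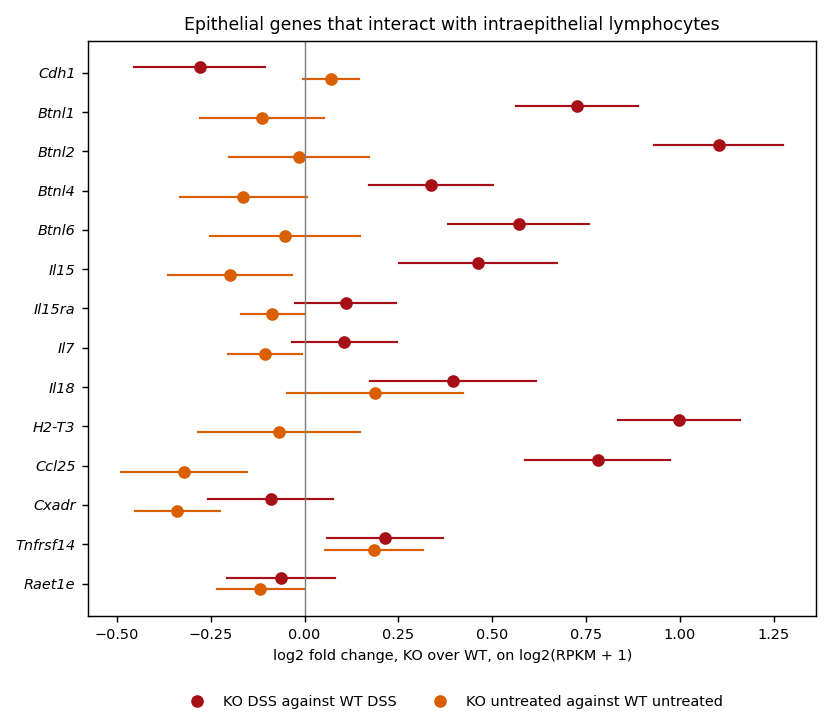
KO over WT difference on log2(RPKM + 1) of the 14 tested epithelial genes whose products meet intraepithelial lymphocytes, under DSS and in untreated mice, with bars of ± 1 standard error from limma (3 libraries a group). Btnl2 at 1.10 and H2-T3 at 0.998 are the 2 genes called under DSS.

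Markers of other cells were summed in the same libraries. Of the 15 markers shared by all leukocytes, 9 of 9 tested genes were higher in KO DSS, against 49.2% of all genes tested, with a median of 0.46. Limma and voom called 0 of them, with 5 at an unadjusted p under 0.05 in each (18.7% of all genes in limma). Cd48, which is among the 9 and among the 5, was at 0.63, 0.637 and 0.774 RPKM in WT DSS libraries. It passed the filter only through the KO DSS libraries, where it was high (1.38, 1.25 and 1.74 RPKM), so its direction and p are a description. The 15 markers summed to 30.3 to 52.2 RPKM in KO DSS and 23.3 to 29.2 RPKM in WT DSS libraries. Set over that sum in each library, the mean log2 level in KO DSS minus that in WT DSS (pooled SD in brackets, n = 3 each) was 0.43 (0.22) for Cd3d, 0.26 (0.35) for Cd3e, 0.42 (0.44) for Cd3g, -0.025 (0.29) for Cd8a and 0.13 (0.21) for Cd7. It was -1.48 (0.89) for Gzma, -0.49 (0.99) for Gzmb, -0.32 (0.099) for Itgae and 1.31 (0.43) for Art2a. On this scale KO DSS and WT DSS libraries overlapped for 6 of the 9 genes, while Cd3d and Art2a were higher and Itgae lower in every KO DSS library. Art2a was chosen for its rise in this comparison. In untreated mice the same measure was 0.54 (0.20) for Cd3d and 2.25 (0.69) for Gzma, both higher in every KO than in every WT library. The other 7 genes overlapped there. No share of all genes was taken on this scale, so nothing is read from these counts. The macrophage and dendritic cell list (12 genes) summed to 30.2 to 44.0 RPKM in KO DSS and 24.4 to 29.4 RPKM in WT DSS libraries. Most of that sum was Cd14, with means of 22.6 RPKM in KO DSS and 21.0 RPKM in WT DSS libraries. Its C1qb and C1qc averaged 0.588 and 0.493 RPKM in KO DSS and 0.276 and 0.211 RPKM in WT DSS libraries, too low to be tested. Limma called 1 of the 4 tested genes of the list, the complement gene C1qa, higher in KO DSS, as were 0.446% of all genes tested. C1qa was at 1.83, 4.92 and 2.3 RPKM in KO DSS libraries and at 0.117, 0.327 and 0.0574 RPKM in WT DSS libraries, so it passed the filter only through the KO DSS libraries (1.71, limma adjusted p = 0.034). Its limma adjusted p was 0.138 without the filter, 0.0583 with the trend in gene length removed, and 0.189, 0.166 and 0.0601 without WT DSS replicates 1, 2 and 3. The neutrophil list (8 genes) summed to 62.9 to 130 RPKM in KO DSS and 38.3 to 72.0 RPKM in WT DSS libraries and lay mostly on Ly6g, while 5 of its 8 genes in KO DSS and 7 of 8 in WT DSS libraries averaged under 1 RPKM. The NK and innate lymphoid cell list (12 genes) summed to 42.1 to 59.7 RPKM in KO DSS and 46.6 to 52.5 RPKM in WT DSS libraries. B and plasma cell markers (8 genes) summed to 0.24 to 0.577 RPKM in all 12 libraries, and none passed the filter. The fibroblast and endothelial list (10 genes) summed to 2.84 to 8.04 RPKM in KO DSS and 4.16 to 5.37 RPKM in WT DSS libraries. The epithelial sum (12 genes) was 18826 to 22845 RPKM in KO DSS and 10218 to 16540 RPKM in WT DSS libraries, and most of that difference lay on Car1, a carbonic anhydrase of colonocytes, which averaged 11707 RPKM in KO DSS and 4957 RPKM in WT DSS libraries. Without Car1 the sum was 8857 to 9479 RPKM in KO DSS and 6898 to 9747 RPKM in WT DSS libraries, which overlapped. Of the 12 genes, 10 were higher and 2 lower in KO DSS (49.2% of all genes tested were higher), with a median of 0.11. Limma and voom called 0 of the 12, with 4 at an unadjusted p under 0.05 in each (18.7% of all genes in limma). In untreated mice the leukocyte markers summed to 22.1 to 31.8 RPKM in KO and 20.5 to 30.9 RPKM in WT libraries. The part of these other cells in the values of the T cell genes was not tested.

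**Figure D5:**
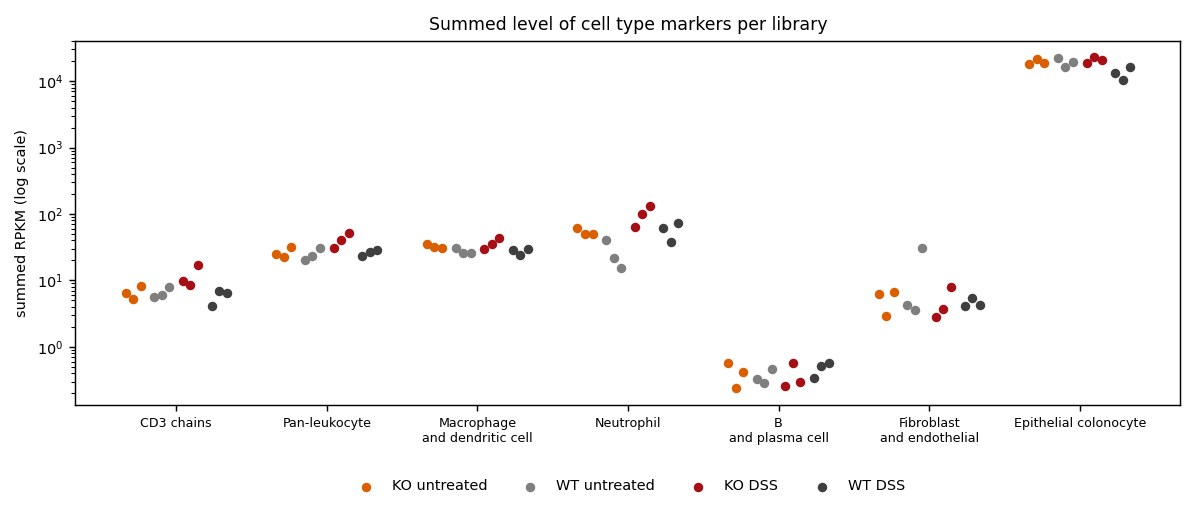
Summed RPKM (log scale) of 7 marker lists in each library (points), for KO untreated, WT untreated, KO DSS and WT DSS. The CD3 chains and the leukocyte markers of KO DSS libraries lie above those of WT DSS libraries, at 8.52 to 17.2 against 4.11 to 6.94 RPKM and at 30.3 to 52.2 against 23.3 to 29.2 RPKM.

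Levels under DSS and without it come from tables that were normalised separately, and batch and DSS cannot be told apart. Side by side, summed CD3 chains averaged 11.8 RPKM in KO DSS and 6.64 RPKM in KO untreated libraries, and 5.83 RPKM in WT DSS and 6.54 RPKM in WT untreated libraries. Gzma averaged 2.71 ± 1.36 RPKM in KO DSS and 4.45 ± 3.16 RPKM in KO untreated libraries, and 4.98 ± 3.06 RPKM in WT DSS and 0.882 ± 0.596 RPKM in WT untreated libraries (SD, n = 3 each). By mean level the order in every group began with Cd7. It went on with Gzma in KO untreated and WT DSS, with Cd3g in WT untreated and with Art2a in KO DSS libraries, and Itgae, Cd8a or Cd3d was last.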

How the data were processed

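The authors deposited 2 tables, KO against WT in untreated mice and KO against WT under DSS, with RPKM for each library, per the file headers. None of the authors' other deposited columns was used: their log2 values (fold change, mean abundance), F score, p-value and adjusted p-value, and group columns that are headed RPKM but were recorded here as a score, being scaled unlike the library columns. The submitters' processing notes name the builds GRCm38 and mm10 and the tools TopHat2 2.1.1 and edgeR 3.30.3. The counter and its gene models stand in none of the sources used here. Of 23794 lines, 4 with repeated date names were left out.

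As the tables hold RPKM and not counts, log2(RPKM + 1) was fitted in limma 3.58.1 (R 4.3.3, trend on the mean), for genes at 1 RPKM or more in at least 3 compared libraries, with Benjamini-Hochberg adjustment over all genes tested and calls at an adjusted p under 0.05. Each table was fitted on its own (6 libraries), and the interaction over 12. Whole reads were recovered from the RPKM steps for 23790 genes (100%, tolerance 0.02 reads). Counting intervals were not given, since PCR reads without molecular identifiers are not independent molecules. The members and lists were chosen with earlier results of these data known. Genes were named as members, the 3 most abundant or called genes of a list, partners of members, or the 6 most like the CD3 chains; others are marked in the text.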

Additional observations from a re-analysis of the deposited data

Results flagged for a closer look

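Gzma over the summed CD3 chains stood on opposite sides of WT in the 2 tables. The KO mean of this ratio was 4.92 times the WT mean in untreated mice, with every KO library above every WT library, and 0.278 times the WT mean under DSS, with every KO library below every WT library. The difference between the tables was not tested for this ratio, which was chosen after the values were seen; the interaction of Gzma itself had a limma adjusted p of 0.103. C1qa, from the macrophage and dendritic cell list, differed in its KO over WT difference between DSS and untreated mice, with an interaction of 1.91 on the log2 scale (limma adjusted p = 0.0479). The adjusted p was 0.0985 without the filter on low values, 0.062 with the trend in gene length removed, 0.427 with the replicate numbers as a block and 0.021 to 0.114 with 1 library left out. C1qb and C1qc of the same list did not follow C1qa. They were too low to be tested, and without the filter their interactions were 0.166 and 0.167. In WT untreated libraries C1qa averaged 3.87 RPKM, C1qb 0.134 RPKM and C1qc 0.113 RPKM. Which cells gave the C1qa reads was not tested.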

How the results depend on the processing

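Under DSS 84 genes were called in all, against 1 without the filter on low values, 295 with the gene length trend removed and 1 to 364 with 1 library left out. The limma fit with the replicate numbers as a block called 398 genes and 1 of the members, Cd7 (adjusted p = 0.0479). Same-numbered DSS libraries correlated at -0.114, 0.359 and 0.133 in their deviations from the group means. KO DSS replicates 2 and 3 correlated best with the WT DSS library of the same number, but KO DSS replicate 1 with WT DSS replicate 3 (0.297). The labels do not say that a number marks a pair, and these few correlations cannot settle it. No paired analysis was possible in untreated mice because KO and WT there share only 1 number. A replicate block over the 12 libraries called 0 genes in the interaction and 0 members (1008 and 2 at an unadjusted p under 0.05). In untreated mice the 2 calls became 1 without the filter and 2 to 6 with 1 library left out. The 158 interaction calls became 4 without the filter, 538 with the length trend removed, which called 1 member (Gzma, -2.26), and 1 to 433 with 1 library left out. Members called stayed at 0 in every fit that left out a library. Directions turned for Gzmb under DSS (-0.10 with the length trend removed, -0.25 to 0.30 with 1 library left out) and, with 1 library left out, for untreated Cd3e (-0.27 to 0.041), Cd3g (-0.16 to 0.083), C1qa (-0.54 to 0.013), Btnl1 (-0.27 to 0.020), Btnl2 (-0.19 to 0.14), H2-T3 (-0.24 to 0.16) and Xcl1 (-0.17 to 0.23), and for the interactions of Gzmb (-0.64 to 0.036) and Itgae (-0.29 to 0.062). Untreated Btnl2 was also 0.019 in voom and Xcl1 -0.043 with the length trend removed. The interaction block and the settings for Btnl1, Btnl2, H2-T3, Klrd1, Xcl1 and C1qa were added after seeing the data. The cause of these changes was not tested. A member had 8 to 208 reads in a library, which limits the precision of its level.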
